A study of Mus musculus with 11 samples.

Results

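The comparison set the 7 arrays of CD8 T cells recovered from tumors of galectin-3 knockout (KO) hosts against the 4 arrays from wild-type (WT) hosts, out of 11 arrays in all. Members were taken by the host genotype in the labels. The KO-host arrays hold 3 arrays of gal-3 WT T cells and 4 arrays of gal-3 KO T cells, and all 4 WT-host arrays hold gal-3 WT T cells. The comparison asked on which genes T cells of both genotypes agree when the host lacks galectin-3. KO T cells in WT hosts were not among the arrays, so a KO-host value of KO T cells carries the loss in both the cells and the host. In every group, T cells of T cell receptor (TCR) transgenic donors, marked by the surface protein Thy1.2, were transferred into mice with mammary fat pad tumors of NT2.5, a line of mouse mammary tumor cells. Hosts of every group were given cyclophosphamide at 100 mg/kg on day 8, a whole-cell vaccine that secretes GM-CSF, a growth factor of myeloid cells, on day 9 and the T cells on day 10, and the cells were sorted from digested tumors 5 days after transfer. The labels give no host strain, age or sex. The design text speaks of biological replicates, but the number of mice behind an array is not given. The p-values rest on the spread between arrays, and how much of it lies between mice is not known.

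Galectin-3 is a secreted lectin that binds galactose-containing glycans and can join glycoproteins on cell surfaces into lattices. On T cells it can bind the TCR and the inhibitory receptor LAG-3, and in tumors it is made by tumor cells, macrophages and activated T cells. Interferon gamma from CD8 T cells induces the transcription factor IRF1, guanylate-binding proteins and immunity-related GTPases, which act against intracellular pathogens, and chemokines that draw in further T cells. Macrophages in the same tissue respond to the same cytokine.

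Values were deposited log2 signals, and the table named 20259 genes, each represented by its row of highest mean. Correlations of array pairs over genes ran from 0.96 to 0.981, 0.975 on average within a host genotype and 0.972 between them. The median SE of a log2 difference between hosts was 0.123. The slope of an array on the mean array, a measure of its value range, was 0.9447 and 0.9653 for WT-host arrays 4 and 1, against 0.9846 to 1.0316 in the other arrays of both hosts. Counts and medians of the main gene lists are therefore also given without those WT-host arrays, where 2.53% of all genes were higher and 2.34% lower at an unadjusted p under 0.05. The CD8 T cell label was borne out by the defining markers. Cd8a had log2 signals of 10.92, 11.07, 11.01 and 11.02 in WT hosts and of 10.97 to 11.31 in KO hosts, while Cd4 lay at 4.19 and 4.15, at the 21.2nd percentile of genes by its mean. Xist was bright in all arrays, at 10.42 ± 0.14 (SD, n = 4) and 10.57 ± 0.21 (SD, n = 7), and the Y-linked genes Kdm5d and Eif2s3y lay at 3.46 and 3.00 in WT hosts and at 3.45 and 3.01 in KO hosts. Lgals3, which encodes galectin-3, had a log2 signal of 8.31 ± 0.17 (SD, n = 4) in the WT-host arrays. The KO-host arrays held 8.28 ± 0.22 (SD, n = 3) for T cells with the gene and 7.43 ± 0.14 (SD, n = 4) for those without it by their label. These groups differed from WT hosts by -0.03 and -0.87, so its pooled difference of -0.51 (SE 0.22; limma adjusted p = 0.457) describes neither group. Its mean lay at the 92.5th percentile of genes, and its signal in KO T cells was thus lower but far from dim. No test showed whether its probes match sequence that the knockout removes, so this signal does not check the KO label, and KO T cells here are the arrays that carry it.

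A single gene passed the test between hosts, 0.00494% of the 20259 genes tested by limma at an adjusted p under 0.05. This was Rps15a-ps2 on chromosome 19, annotated as a pseudogene of the ribosomal protein gene Rps15a. Its log2 signals were 6.70, 6.40, 6.63 and 6.10 in the WT-host arrays, and ran from 7.39 through a median of 7.52 to 7.95 in the KO-host arrays. The groups did not overlap, and the highest WT-host array lay 0.69 below the lowest KO-host array. The gene rose by 1.17 (SE 0.14; limma adjusted p = 0.0331), with 1.11 in WT T cells and 1.21 in KO T cells. Rps15a itself, a component of the small ribosomal subunit, differed by -0.33 (SE 0.20; limma adjusted p = 0.546). Whether the probes of the pseudogene row also bind Rps15a transcripts was not tested. The pseudogene's difference stayed between 1.05 and 1.25 under all 23 alternatives, but its adjusted p missed the threshold without any of 7 of the 11 arrays (0.0609 to 0.135) and was 0.649 without WT-host arrays 1 and 4.

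At an unadjusted p under 0.05, 2187 genes (10.8%) differed between hosts, of which 893 (4.41%) were higher and 1294 (6.39%) lower in KO hosts. In 331 genes (1.63%) the arrays of the hosts did not overlap, with 139 (0.686%) higher and 192 (0.948%) lower. Genes with a host difference at an unadjusted p under 0.05 and with the means of both KO-host groups at least 0.3 to the same side of the WT-host mean numbered 796 (3.93%). Of these, 408 (2.01%) were higher and 388 (1.92%) lower, and they are called concordant genes here. Both KO-host groups were set against the same 4 WT-host arrays, so this count is a description and not a test of agreement. Between T cell genotypes within KO hosts, a contrast that uses no WT-host array, 0 genes passed the limma adjusted threshold and 681 (3.36%) had an unadjusted p under 0.05, 374 (1.85%) higher and 307 (1.52%) lower in KO T cells. Even Lgals3 fell short of the threshold in this contrast, at -0.84 in KO against WT T cells (SE 0.14; limma adjusted p = 0.569). The count of 0 therefore does not show that the T cell genotypes agree. Among the 331 genes without overlap, 10 (3.02%) had an unadjusted p under 0.05 between T cell genotypes, and their median absolute difference was 0.321 between hosts against 0.068 between T cell genotypes. Over all genes these medians were 0.123 and 0.094. The 331 genes were chosen by the separation of the hosts, which favours a large host difference, so these values describe them and do not test agreement. Set singly against the WT-host arrays, WT T cells and KO T cells had 0 genes each past the limma adjusted threshold. At an unadjusted p under 0.05 there were 1507 (7.44%) for WT T cells, 642 higher (3.17%) and 865 lower (4.27%), and 1634 (8.07%) for KO T cells, 797 higher (3.93%) and 837 lower (4.13%).

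The direction of the differences went with the brightness of the gene. In the 5065 brightest genes, 426 were higher and 96 lower at an unadjusted p under 0.05, whereas in the 5065 dimmest 52 were higher and 355 lower. The median difference was 0.07 in the brightest and -0.08 in the dimmest, with -0.04 over all genes. WT-host arrays 1 and 4, with their low slopes, hold dim values that are raised and bright values that are lowered relative to the mean array. Of the genes with an unadjusted p under 0.05, 40.8% were higher in KO hosts in the deposited values, 53.8% after quantile normalization, 61.7% after cyclic loess and 76.6% after median centring. The share among concordant genes went from 51.3% to 58.0%, 67.0% and 81.3%, and among genes without overlap from 42.0% to 59.0% and 65.4%, with 254 higher and 76 lower after median centring. Without WT-host arrays 1 and 4, 513 genes were higher and 474 lower, 4.87% of genes in all. Leaving out array 4 alone gave 1369 genes, and leaving out array 1 alone gave 1447.

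**Figure D1:**
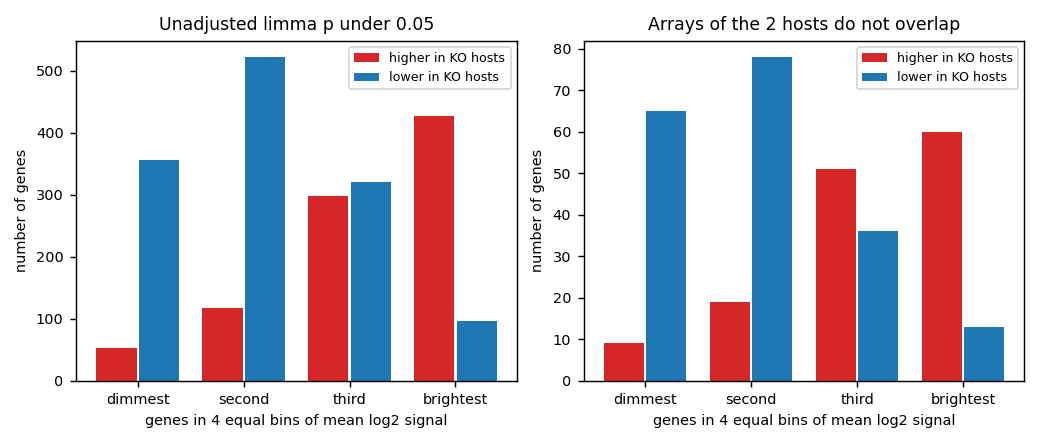
Number of genes (vertical axis) that were higher (red) or lower (blue) in KO hosts in 4 equal bins of mean log2 signal (horizontal axis), for an unadjusted limma p under 0.05 on the left and for arrays that do not overlap on the right. Lower genes outnumber higher ones in the dimmest bin (355 against 52 on the left), and higher genes do so in the brightest (426 against 96).

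Genes induced by interferon gamma stood higher in KO hosts in T cells of both genotypes. Of 10 measured GTPases and transcription factors on the list, 9 were higher and 6 had an unadjusted p under 0.05, against 4.41% of all genes. Their median difference was 0.44, with 0.55 in WT T cells and 0.40 in KO T cells. The mean log2 signal of the list was 6.71 to 6.96 in WT-host arrays and 7.10 to 7.40 in KO-host arrays. None of these genes passed the adjusted threshold, and without WT-host arrays 1 and 4 the list held 3 genes with an unadjusted p under 0.05, with a median of 0.30, against 2.53% of all genes. The macrophage marker list was higher in the same arrays (5.72 to 5.94 in WT hosts, 6.07 to 6.60 in KO hosts), and its part in the interferon differences was not tested.

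The promoter windows of 4 of these genes, from 250 bases before to 50 bases after the gene start, show the sequences to which interferon-activated factors are known to bind. They are given because Irf1, Irgm1 and Gbp3 do not overlap between hosts and Gbp2 has the largest difference of the list, so they were chosen after the values were seen. The sequences are from RefSeq, build GRCm38.p6, in the direction of the gene. Capitals mark each match to the core of the interferon-stimulated response element, GAAANNGAAA, or to the gamma-activated sequence, TTCNNNGAA, on either strand. In Irf1 the capitals are a gamma-activated sequence starting 90 bases before the gene start, and in Irgm1 and Gbp3 they are 2 overlapping response element cores each. The windows are Irf1 at chr11:53769764-53770063 on the plus strand, Irgm1 at chr11:48871371-48871670 on the minus strand, Gbp3 at chr3:142559794-142560093 on the plus strand and Gbp2 at chr3:142620413-142620712 on the plus strand.
Irf1: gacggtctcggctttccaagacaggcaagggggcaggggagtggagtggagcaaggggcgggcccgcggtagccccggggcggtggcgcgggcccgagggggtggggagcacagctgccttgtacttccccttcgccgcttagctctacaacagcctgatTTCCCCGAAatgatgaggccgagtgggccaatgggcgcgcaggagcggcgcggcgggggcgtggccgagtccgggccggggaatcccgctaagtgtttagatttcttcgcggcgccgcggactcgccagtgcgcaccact
Irgm1: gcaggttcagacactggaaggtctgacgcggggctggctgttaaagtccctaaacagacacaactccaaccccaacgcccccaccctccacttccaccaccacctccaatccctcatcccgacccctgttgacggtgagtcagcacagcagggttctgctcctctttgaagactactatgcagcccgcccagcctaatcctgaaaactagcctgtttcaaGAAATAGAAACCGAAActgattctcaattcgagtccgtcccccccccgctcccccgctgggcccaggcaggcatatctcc
Gbp3: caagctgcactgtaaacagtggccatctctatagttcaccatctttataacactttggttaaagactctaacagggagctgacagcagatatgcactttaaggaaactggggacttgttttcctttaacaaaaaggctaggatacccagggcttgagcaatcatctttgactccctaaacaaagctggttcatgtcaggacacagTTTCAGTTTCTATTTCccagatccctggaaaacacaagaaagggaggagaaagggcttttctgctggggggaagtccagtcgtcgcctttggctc
Gbp2: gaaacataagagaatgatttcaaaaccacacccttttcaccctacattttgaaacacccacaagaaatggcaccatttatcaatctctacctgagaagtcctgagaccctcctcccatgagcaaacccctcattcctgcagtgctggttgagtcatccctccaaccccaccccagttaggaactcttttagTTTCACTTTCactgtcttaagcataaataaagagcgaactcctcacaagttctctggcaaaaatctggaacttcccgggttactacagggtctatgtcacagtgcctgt
A response element core was found in 7 of the 9 interferon gamma list genes that have a promoter window (77.8%), in 9 of 18 type I interferon genes, in 2 of 13 macrophage markers (15.4%) and in 571 of 15650 measured genes (3.6%). The gamma-activated sequence was found in 5 of 9 (55.6%), 4 of 18 (22.2%), 1 of 13 (7.7%) and 1380 of 15650 (8.8%). A match describes the letters of the window and is neither a measured binding site nor a cause of a difference.

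Irf1, the transcription factor whose window holds the gamma-activated sequence, had log2 signals of 7.42, 7.15, 6.86 and 7.30 in WT hosts and of 7.59 to 8.13 in KO hosts, with a median of 7.70. All 7 KO-host arrays lay above all 4 WT-host arrays. Its difference was 0.57 (SE 0.12; limma adjusted p = 0.282), with 0.64 in WT T cells and 0.51 in KO T cells. The GTPase Irgm1, which acts in defence within vacuoles and in autophagy, had 6.26, 6.37, 5.97 and 6.06 in WT hosts and 6.54 to 7.01 in KO hosts, with a median of 6.72. Its groups did not overlap either, and WT and KO T cells differed from WT hosts by 0.59 and 0.56. Gbp3, a guanylate-binding protein, had 6.87, 6.56, 6.53 and 6.52 in WT hosts and 6.94 to 7.48 in KO hosts, with a median of 7.20. WT-host array 1 lay close below the lowest KO-host array, and the gene's difference was 0.57 (SE 0.12; limma adjusted p = 0.282). Gbp2 had 6.93, 7.33, 7.99 and 6.96 in WT hosts and 7.80 to 8.33 in KO hosts. WT-host array 3 lay within the KO-host range. The difference of 0.71 (SE 0.18) was 0.94 without that array, with a limma adjusted p of 0.0438, and 0.36 without WT-host arrays 1 and 4.

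Genes of the type I interferon response were also higher, 23 of 26 with a median of 0.26 (0.20 in WT T cells, 0.25 in KO T cells). An unadjusted p under 0.05 was reached by 10 of them, all higher, against 4.41% of all genes, and by 7 without WT-host arrays 1 and 4, 6 of them shared, against 2.53%. The list's mean log2 signal was 5.65 to 5.75 in WT hosts and 5.92 to 6.18 in KO hosts, without overlap. Oasl2, an antiviral protein related to the oligoadenylate synthetases, had 4.32, 4.46, 4.16 and 4.40 in WT hosts and 4.60 to 4.94 in KO hosts, and differed by 0.45 (SE 0.10; limma adjusted p = 0.282). The value was 0.57 for Parp14, an ADP-ribosyltransferase, 0.56 for Irf9, a transcription factor of the type I interferon response, and 0.39 for Usp18, which limits type I interferon signalling. Oasl2, Parp14 and Usp18 did not overlap between hosts, while Irf9 did. In class I antigen processing all 11 measured genes were higher, with a median of 0.15. An unadjusted p under 0.05 was reached by 3, against 4.41% of all genes, and by 1 without WT-host arrays 1 and 4, against 2.53%. Psme1, an activator subunit of the proteasome, differed by 0.31 and the chaperone Calr, of the peptide-loading complex, by 0.31.

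**Figure D2:**
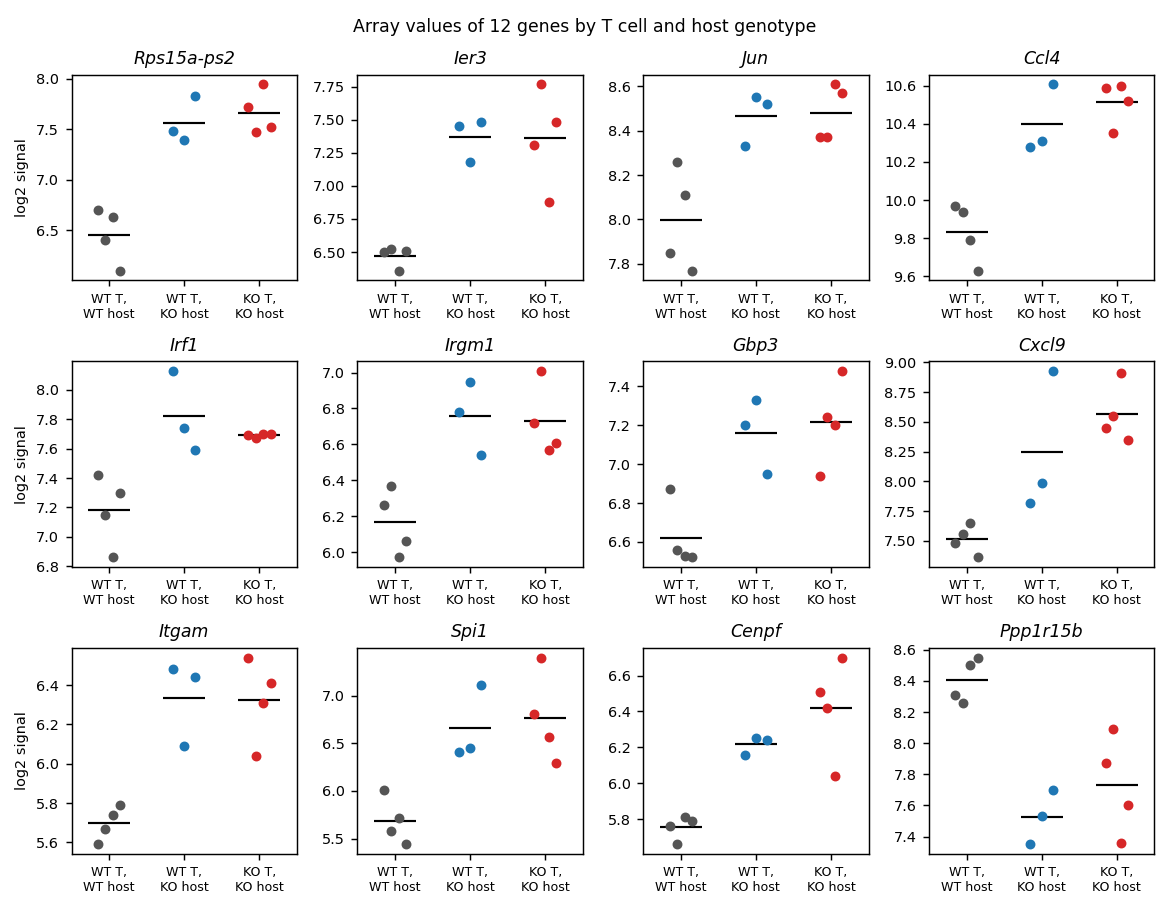
Log2 signal (vertical axes, each with its own scale) of 12 genes in every array by T cell and host genotype (horizontal axes), with points for arrays and bars for group means. All 12 are taken from the 1.63% of genes without overlap between hosts, as in Ier3 (6.36 to 6.52 against 6.88 to 7.77). Their separation is thus set by the choice of genes, and other genes of the same lists overlap. Ppp1r15b, shown by its row of highest mean, is the one gene that is lower in KO hosts.

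Among T cell and interferon-induced chemokines, 8 of 11 were higher with a median of 0.31, and 4 were higher and 1 lower at an unadjusted p under 0.05, in both the whole set of arrays and without WT-host arrays 1 and 4. Over all genes 4.41% were higher and 6.39% lower at that p, and 2.53% and 2.34% without those arrays. Ccl4, a chemokine released by activated CD8 T cells, had 9.97, 9.94, 9.79 and 9.63 in WT hosts and 10.28 to 10.61 in KO hosts, with a median of 10.52. Its groups were 0.31 apart, with a difference of 0.63 (SE 0.10; limma adjusted p = 0.242). Ccl3, a related chemokine, had 10.91, 10.73, 10.44 and 10.73 in WT hosts and 11.09 to 11.62 in KO hosts, again without overlap, and differed by 0.57 (SE 0.12). Cxcl9, which attracts activated T cells through the receptor CXCR3, had 7.48, 7.56, 7.65 and 7.36 in WT hosts and 7.82 to 8.93 in KO hosts, with a median of 8.45. Its difference was 0.73 in WT T cells and 1.05 in KO T cells. Cxcl11, a further CXCR3 ligand, differed by 0.77 and overlapped, since WT-host array 1 reached 6.19.

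Cytotoxic granule genes were mixed. Of 11 measured, 7 were higher with a median of 0.04. An unadjusted p under 0.05 was reached by 4, all higher, against 4.41% of all genes. Without WT-host arrays 1 and 4 it was reached by 2 of these, against 2.53%, and the median was 0.13. Gzmb, the granzyme that activates caspases in target cells, had 11.50, 11.40, 11.34 and 11.14 in WT hosts and 11.55 to 12.09 in KO hosts, with a median of 11.76. The groups lay just apart, and the difference was 0.42 (SE 0.11; limma adjusted p = 0.323). Gzma, a second granzyme, differed by 0.49, and Lamp1, a membrane protein of lysosomes and granules, by 0.36. Perforin (Prf1), which opens the target membrane, differed by 0.26 (SE 0.12; limma adjusted p = 0.468). Ifng, the gene of interferon gamma itself, differed by 0.39 (SE 0.14; limma adjusted p = 0.423), with 0.25 in WT T cells and 0.50 in KO T cells, and its groups overlapped. Among effector cytokines and death ligands it was the single gene of 16 (6.25%) with an unadjusted p under 0.05, near the 4.41% higher over all genes. Without WT-host arrays 1 and 4 the list held 0 such genes. Cx3cr1, of the separate list of chemokine and egress receptors, differed by 0.37 without overlap. It was the single gene of 13 on that list (7.69%) with an unadjusted p under 0.05, near the 4.41% higher over all genes. Of the 13 genes 6 were higher, with a median of -0.005.

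Immediate early genes, which antigen receptors and cytokines switch on within minutes, were higher in 19 of 22 cases with a median of 0.15. An unadjusted p under 0.05 was reached by 6, all higher, against 4.41% of all genes. Without WT-host arrays 1 and 4 it was reached by 4, 2 of them shared, against 2.53%, and the median was 0.08. Ier3, a gene of stress and survival signalling, had 6.50, 6.52, 6.36 and 6.51 in WT hosts and 6.88 to 7.77 in KO hosts, with a median of 7.45. The WT-host arrays were tightly grouped and all KO-host arrays lay above them. Its difference was 0.89 (SE 0.14; limma adjusted p = 0.242), with 0.90 in WT T cells and 0.89 in KO T cells, and without array 3 of KO T cells its limma adjusted p was 0.0329. Jun, a subunit of the transcription factor AP-1, had 7.85, 8.26, 8.11 and 7.77 in WT hosts and 8.33 to 8.61 in KO hosts. Its difference was 0.48 (SE 0.11), with 0.47 in WT T cells and 0.49 in KO T cells. Gadd45b, a stress-activated regulator of p38 signalling, differed by 0.40.

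The regulatory subunits that direct protein phosphatase 1 to the translation factor eIF2 went opposite ways in their rows of highest mean. Ppp1r15b, the constitutive subunit, had 8.31, 8.26, 8.50 and 8.55 in WT hosts and 7.35 to 8.09 in KO hosts, with a median of 7.60. All KO-host arrays lay below all WT-host arrays, with a difference of -0.76 (SE 0.14; limma adjusted p = 0.282), -0.88 in WT T cells and -0.68 in KO T cells. Averaged over all rows that name the gene, the difference was -0.17. The rows of Ppp1r15b thus disagree, and the values above hold for its row of highest mean alone. Ppp1r15a, the subunit induced by stress, had 8.49, 8.19, 8.55 and 7.85 in WT hosts and 8.50 to 8.80 in KO hosts, a difference of 0.39 (SE 0.13) that was 0.25 without WT-host array 4. WT-host array 3 lay within the KO-host range. These were the only 2 of 16 integrated stress response genes with an unadjusted p under 0.05, against 10.8% of all genes.

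Genes of mitosis and the kinetochore were higher in 30 of 34 cases, with a median of 0.32. It was 0.15 in WT T cells and 0.40 in KO T cells. An unadjusted p under 0.05 was reached by 16, all higher, against 4.41% of all genes, and by 9 of these without WT-host arrays 1 and 4, against 2.53%, where the median was 0.28. The list's mean signal was 6.23 to 6.33 in WT-host arrays, 6.38 to 6.45 in KO-host arrays of WT T cells and 6.48 to 6.87 in those of KO T cells, so the 3 groups did not overlap. Within KO hosts, 9 of the 34 genes were higher in KO than in WT T cells at an unadjusted p under 0.05, against 1.85% of all genes. In the same contrast 5 of 15 neutrophil markers were higher in KO T cells at an unadjusted p under 0.05, against the same 1.85%. Their list levels were 4.46 to 4.64 in WT T cells and 4.80 to 5.06 in KO T cells, and their part in the mitosis difference was not tested. Cenpf, a kinetochore protein, was the mitotic gene with the widest gap between hosts. It had 5.76, 5.66, 5.81 and 5.79 in WT hosts and 6.04 to 6.70 in KO hosts, with a median of 6.25, and a difference of 0.58 (SE 0.12; limma adjusted p = 0.282), made up of 0.46 in WT T cells and 0.66 in KO T cells. Kif20a, a kinesin of cytokinesis, had 6.09, 5.82, 5.50 and 5.66 in WT hosts and 6.15 to 6.69 in KO hosts, and differed by 0.42 in WT T cells and 0.65 in KO T cells. Anln, which organises the contractile ring, differed by 0.40 without overlap, and Birc5, a subunit of the chromosomal passenger complex, by 0.35.

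DNA replication genes differed less, with a median of 0.12 over 31 genes. An unadjusted p under 0.05 was reached by 2 (6.45%), near the 4.41% higher over all genes, and by 0 without WT-host arrays 1 and 4. Rrm1, the large subunit of ribonucleotide reductase, differed by 0.27, with 0.12 in WT T cells and 0.38 in KO T cells. In the Myc, Max and Mxd network, Mxd4, a repressor that competes with Myc for Max, differed by -0.43 (SE 0.12) without overlap, -0.25 in WT T cells and -0.57 in KO T cells. Mlx, the partner of the glucose-sensing Mondo proteins, differed by 0.56.

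The TCR complex and its proximal signalling proteins were higher in 15 of 19 cases with a median of 0.13. Of these, 3 had an unadjusted p under 0.05, against 4.41% higher over all genes. Without WT-host arrays 1 and 4, 0 were higher at that p, against 2.53%, and the median was 0.04. With the value range of the arrays as a covariate the median was -0.019, so its direction depends on this setting. Lcp2, the adaptor SLP-76, had 8.51, 8.62, 8.66 and 8.54 in WT hosts and 8.78 to 8.94 in KO hosts, a difference of 0.25 (SE 0.07) without overlap. The exchange factor Vav1 differed by 0.48 and the CD3 chain Cd3g by 0.21. Lag3 differed by 0.01 (SE 0.10) and Pdcd1, the gene of PD-1, by -0.01 (SE 0.14), with signs that turned under some alternatives. Of 13 inhibitory receptors 1 (7.69%) was higher at an unadjusted p under 0.05, near the share over all genes. Thy1 differed by -0.05 (SE 0.13). Prdm1, the transcription factor Blimp-1 of effector differentiation, differed by 0.40, with 0.39 in WT T cells and 0.40 in KO T cells. It was 1 of 3 among 20 effector and exhaustion transcription factors higher at an unadjusted p under 0.05, against 4.41% of all genes. Without WT-host arrays 1 and 4 the list held 1 (5%), against 2.53%. Il2ra, the alpha chain of the interleukin-2 receptor, differed by 0.23. It was the single such gene of 15 costimulatory receptors and activation markers (6.67%), near the 4.41% over all genes, and without those arrays there were 0. The naive, memory and homing list had a median of 0.13 in WT T cells and -0.09 in KO T cells.

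**Figure D3:**
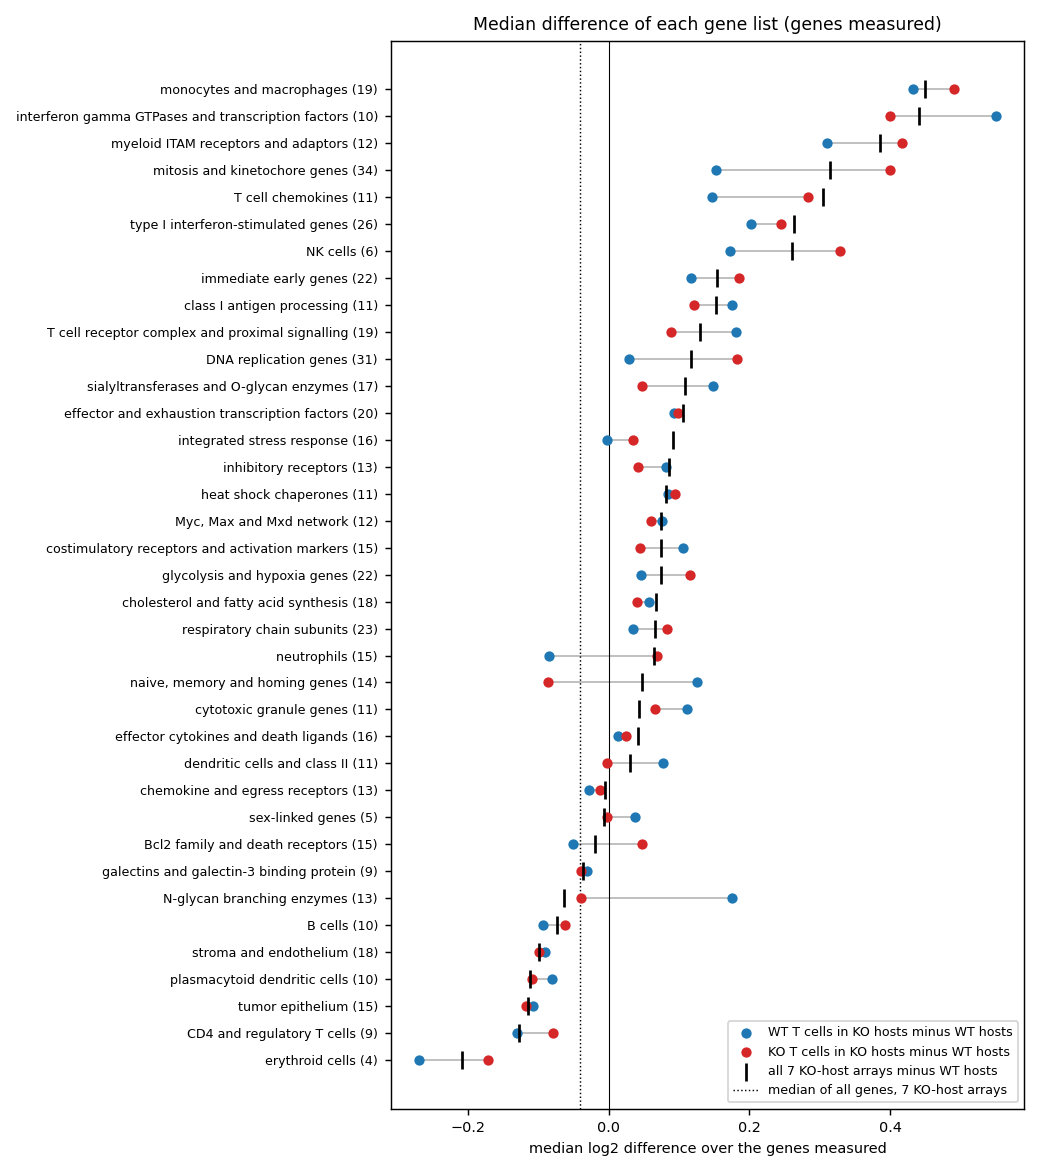
Median log2 difference from WT-host arrays (horizontal axis) of each gene list (vertical axis, number of genes measured in brackets), for WT T cells in KO hosts (blue), KO T cells in KO hosts (red) and all 7 KO-host arrays (black bars), beside the median of all genes (dotted, -0.04). Macrophage markers (0.45) and the interferon gamma list (0.44) stand highest, and the mitosis list shows the KO T cells (0.40) to the right of the WT T cells (0.15).

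Enzymes that build or extend glycans gave a few differences. Among sialyltransferases and O-glycan enzymes 11 of 17 were higher, with a median of 0.11. An unadjusted p under 0.05 was reached by 3, all higher, against 4.41% of all genes. The same 3 reached it without WT-host arrays 1 and 4, against 2.53%. St3gal1, which adds sialic acid to core 1 O-glycans, had 7.43, 7.75, 7.73 and 8.05 in WT hosts and 8.07 to 8.45 in KO hosts, with a median of 8.39. The highest WT-host array lay just under the lowest KO-host array, and the difference was 0.56 (SE 0.12; limma adjusted p = 0.282), with 0.69 in WT T cells and 0.47 in KO T cells. C1galt1, which makes the core 1 structure that St3gal1 extends, had 7.10, 7.41, 7.65 and 7.14 in WT hosts and 7.66 to 8.20 in KO hosts. Its groups were 0.01 apart, with a difference of 0.60 (SE 0.13). St3gal5, the ganglioside GM3 synthase, had 6.76, 2.98, 6.33 and 4.95 in WT hosts, a wide spread, and 6.28 to 7.75 in KO hosts, and its difference of 1.66 (SE 0.58) had a limma adjusted p of 0.419. The difference was 0.90 without WT-host array 2, 0.80 when averaged over the gene's rows and 2.26 without WT-host arrays 1 and 4. Of 13 N-glycan branching enzymes, whose products are known galectin-3 ligands, 6 were higher with a median of -0.06. Mgat2 alone (7.69% of the list) had an unadjusted p under 0.05, at 0.24, near the 4.41% higher over all genes. Among the other galectin genes, Lgals2 differed by -0.46 and Lgals8 by 0.18, and Lgals3bp, which encodes a secreted galectin-3 ligand, by 0.19, or by 0.11 without WT-host array 3. Lgals2 was dim, at the 15.1st percentile of genes.

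Markers of monocytes and macrophages, cells that the Thy1.2 sort was meant to leave out, were higher in the same arrays. Of 19 measured, 18 were higher in KO hosts, with a median of 0.45 (0.43 in WT T cells, 0.49 in KO T cells), and 13 reached an unadjusted p under 0.05, against 4.41% of all genes. Without WT-host arrays 1 and 4, 6 of these did so, against 2.53%, and the median was 0.44. The mean log2 signal of the list was 5.72 to 5.94 in WT-host arrays and 6.07 to 6.60 in KO-host arrays, without overlap. In arrays of sorted bulk cells, more cells of a type and more RNA per cell cannot be told apart. The part that such cells have in the chemokine, Cx3cr1, immediate early and mitosis differences was likewise not tested. Itgam, the integrin CD11b of myeloid cells, had 5.59, 5.67, 5.74 and 5.79 in WT hosts and 6.04 to 6.54 in KO hosts, with a median of 6.41. The groups did not overlap, and the difference was 0.63 (SE 0.11; limma adjusted p = 0.282), 0.64 in WT T cells and 0.63 in KO T cells. Spi1, the transcription factor PU.1 of myeloid development, had 6.01, 5.58, 5.72 and 5.44 in WT hosts and 6.29 to 7.40 in KO hosts, a difference of 1.03 (SE 0.20). Csf1r, the receptor for the macrophage growth factor, had 5.60, 5.89, 6.10 and 6.23 in WT hosts and 6.32 to 7.16 in KO hosts, and Apoe, a lipid carrier, had 7.43, 7.82, 7.51 and 7.24 against 7.82 to 8.35. Neither overlapped, though Apoe by a gap of only 0.003, and the differences were 0.81 and 0.67. Adgre1, the macrophage marker F4/80, differed by 0.43 at a low signal of 4.21 in WT hosts and 4.65 in KO hosts.

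Ccl8, a chemokine of monocytes and macrophages, had 5.21, 6.88, 5.32 and 4.31 in WT hosts and 6.77 to 7.66 in KO hosts, with a median of 7.39. WT-host array 2 lay within the KO-host range. The difference was 1.83 (SE 0.37; limma adjusted p = 0.282), 2.31 with a limma adjusted p of 0.0186 without WT-host array 2, and 1.16 without WT-host arrays 1 and 4. Of the receptors and adaptors that signal through ITAM motifs in myeloid cells all 12 were higher, with a median of 0.39. An unadjusted p under 0.05 was reached by 7, against 4.41% of all genes, and by 3 without WT-host arrays 1 and 4, against 2.53%. Tyrobp, the adaptor DAP12 that NK cells also use, differed by 0.98, the RNA sensor Tlr13 by 1.08 and the inhibitory receptor Sirpa by 0.38. Pilra, an inhibitory receptor for sialylated O-glycans, was not concordant: its difference was 0.22 in WT T cells and 1.02 in KO T cells. Between them the unadjusted limma p was 0.000107 and the limma adjusted p 0.572, short of the threshold. Plbd1, a phospholipase-like protein of myeloid granules, differed by 0.98 and Ly86, the MD-1 partner of a Toll-like receptor homologue, by 0.79.

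Markers of neutrophils were mixed between hosts, with 8 of 15 higher and a median of 0.06, and went with the T cell genotype. The mean log2 signal of the list was 4.48 to 4.63 in WT hosts, 4.46 to 4.64 in WT T cells of KO hosts and 4.80 to 5.06 in KO T cells, whose 4 arrays all lay above the other 7. S100a8, a calgranulin of neutrophils and monocytes, had 4.89, 6.41, 5.67 and 4.93 in WT hosts and 5.17 to 8.91 in KO hosts, with a median of 7.52. Its arrays overlapped widely, and its difference was 1.19 in WT T cells and 2.72 in KO T cells. The growth factor receptor Csf3r differed by 0.58 without overlap, while the granule genes Ltf and Elane differed by -0.20 and -0.25. Of the dendritic cell and class II genes 6 of 11 were higher with a median of 0.03, and 4 reached an unadjusted p under 0.05, against 4.41% higher over all genes. Without WT-host arrays 1 and 4 these were 9 of 11, a median of 0.16 and 1 gene, against 2.53% of all genes. The median was -0.003 to -0.028 without WT-host array 2, WT-host array 3 or array 1 of WT T cells in KO hosts. The 4 genes in the whole set of arrays were all class II genes, while 5 of the 11 on the list were lower. Cd74, the invariant chain of class II, differed by 0.69, the class II chains H2-Aa by 0.51 and H2-Ab1 by 0.41, and H2-DMa by 0.28. Of 12 NK cell genes on the list 6 were measured, among them Tyrobp and Fcer1g, which are also on the ITAM list. All 6 were higher, with a median of 0.26 and a list level of 6.89 to 7.24 in WT hosts and at least 7.28 in KO hosts. An unadjusted p under 0.05 was reached by 3, Tyrobp, Klre1 and Fcer1g, against 4.41% of all genes. Without WT-host arrays 1 and 4 it was reached by 1, against 2.53%.

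**Figure D4:**
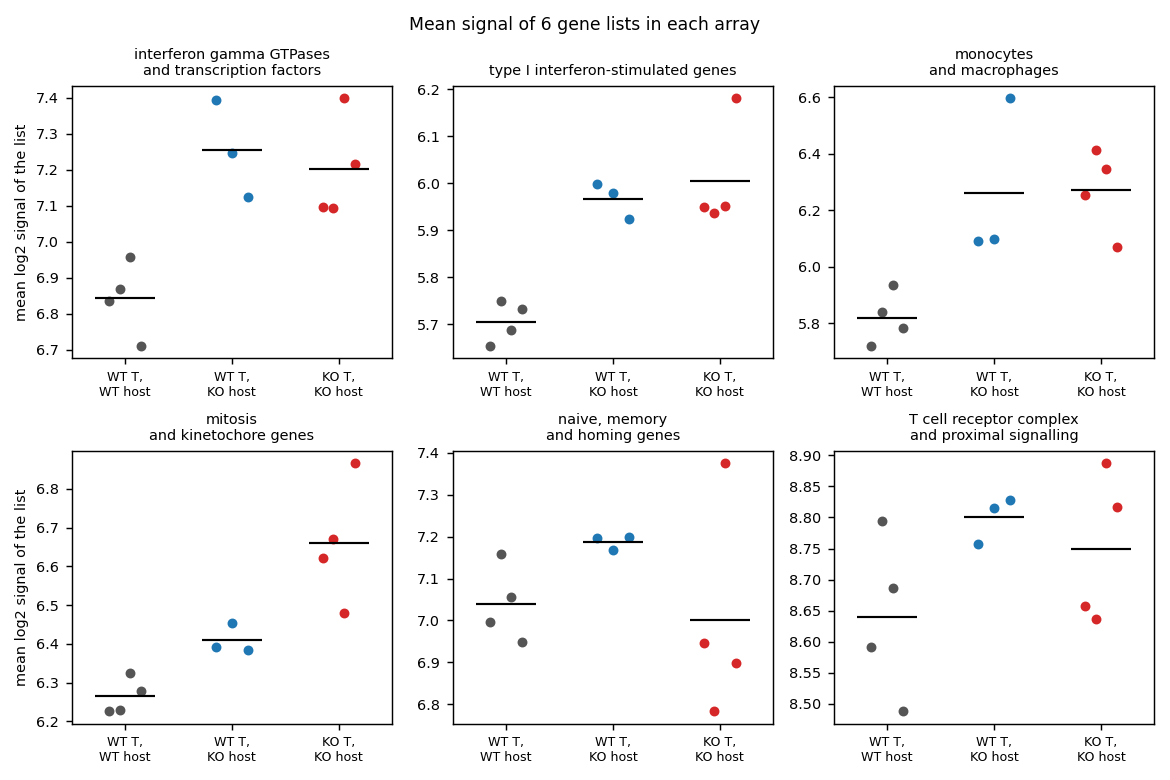
Mean log2 signal of the measured genes of 6 lists (vertical axes, each with its own scale) in every array by T cell and host genotype (horizontal axes), with bars for group means. WT-host and KO-host arrays are apart for the interferon gamma, type I interferon, macrophage and mitosis lists, and overlap for the naive and memory genes and the TCR complex.

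The tumor epithelium, stroma, B cell, CD4 T cell and plasmacytoid dendritic cell lists had medians under 0. Of 15 tumor epithelium genes 0 were higher, with a median of -0.11. An unadjusted p under 0.05 was reached by 2, Epcam at -0.25 and Krt19 at -0.23, against 6.39% lower over all genes. The median was 0.03 without WT-host arrays 1 and 4 and 0.05 with the value range as a covariate. Stroma and endothelium genes had a median of -0.10, with 2 of 18 higher, that was -0.025 without those arrays and 0.034 with the covariate. Fn1, fibronectin, was 1 of those 2, with 4.67, 4.71, 4.71 and 4.68 in WT hosts and 5.08 to 6.10 in KO hosts, a difference of 0.78 (SE 0.18) without overlap. The medians were -0.07 for B cell genes, -0.13 for CD4 and regulatory T cell genes and -0.11 for plasmacytoid dendritic cell genes, where Siglech, a receptor of these cells, differed by -0.19 and Cox6a2 by -0.28. Without WT-host arrays 1 and 4 these medians were -0.048, -0.003 and -0.12, so that of the CD4 list was near 0.

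Genes that were lower in KO hosts were mostly dim. Krtap4-1, a hair keratin-associated protein, had 5.03, 4.50, 4.60 and 5.55 in WT hosts and 2.96 to 4.43 in KO hosts, a difference of -1.47 (SE 0.26; limma adjusted p = 0.282). Its groups were 0.06 apart, its mean lay at the 17.2nd percentile of genes, and without array 1 of KO T cells the limma adjusted p was 0.0486. The odorant receptor Olfr1233 differed by -0.83 at the 16.9th percentile, and S100z, a calcium-binding protein, by -0.70 at the 4.2nd. Cd209e, a C-type lectin, differed by -0.52, Pvalb, parvalbumin, by -0.48 and the zinc finger protein Mzf1 by -0.45. Each of these 6 genes was lower in every KO-host array than in every WT-host array, as were 0.948% of all genes. They were taken from the genes of lowest p, a choice that favours such separation. The mean signals of the 6 genes lay between 3.10 (S100z) and 5.23 (Mzf1), against a median of 5.30 over genes.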

How the data were processed

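Per the labels' protocols, the Absolutely RNA Nanoprep kit served for extraction and the Ovation Pico WTA system for amplification, and the product was labelled with biotin and hybridised to microarrays. The authors deposited log2 signals of 115830 rows in 11 arrays, with values from 1.27 to 14.37. The log2 scale was read from that range. The submitters' processing notes name RMA, Partek and build mm9, with versions and order of steps not given in the sources used here. Through the platform annotation 1 gene is named by 25539 rows (22.0%), several by 2300 and none here by 87991. The Entrez identifiers of 24941 rows were found in the RefSeq table. Each of the 20259 genes was represented by its row of highest mean over the arrays (3109 genes have over 1 row), with no filter on dim genes.

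Hosts were compared with limma (version 3.58.1, R 4.3.3) by lmFit and eBayes, the 7 KO-host against the 4 WT-host arrays without covariates. T cell genotypes were compared in a fit of the 3 group means. Benjamini-Hochberg adjustment ran over all genes. The other rows were tested separately. The fourth array of WT T cells in KO hosts, which the design text implies, was not analysed here. No pair of arrays shared more than 21 identical values. The members and the 37 gene lists were chosen with earlier results of these data known. The genes named were the 14 of lowest p in each direction (predicted genes and pseudogenes only where past the threshold), up to 4 of lowest p per list, the 10 with the widest gap between hosts in each direction, and Lgals3, Lag3, Pdcd1, Cd8a, Thy1, Ifng, Gzmb, Prf1 and sex-linked genes, of which not all are printed. Promoter windows were searched for 2 motifs on both strands. Alternatives covered normalization, dim genes, several rows, variance model, array weights, group weights, replicate numbers, value range and each array left out. The procedure was tested on simulated data. The number of arrays limits the precision of every value.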

Additional observations from a re-analysis of the deposited data

Results flagged for a closer look

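In 168 combinations of a printed gene with a host genotype, 12 held an array whose distance to its neighbour exceeded Dixon's critical value, where chance gives about 1 in 20. In KO hosts these were the highest arrays of Irf1 (8.13, array 1 of WT T cells), Krtap4-1 (4.43, array 1 of KO T cells) and Epcam (5.21, array 4 of KO T cells). In WT hosts array 1 was highest for Gbp3 (6.87) and Cxcl11 (6.19) and lowest for Psme1 (8.03). WT-host array 3 was lowest for Usp18 (4.45), Prf1 (9.54), Ier3 (6.36) and Lgals3bp (6.24) and highest for Rrm1 (7.77). WT-host array 2 was lowest for Sirpa (5.51).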

How the results depend on the processing

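The count of genes past the adjusted threshold (1) was 0 with equal weight of both KO-host groups, with the value range as a covariate and without WT-host arrays 1 and 4, and 0 to 4 when single arrays were left out. Rps15a-ps2 then had a limma adjusted p of 0.0816 with equal weights and 0.697 with the covariate. The count at an unadjusted p under 0.05 (2187) was 1028 above the 50th percentile of signal, where fewer genes were tested, 1161 with the covariate (57.2% of them higher), 987 without WT-host arrays 1 and 4, and 1369 to 2661 without single arrays. Between T cell genotypes the count (681) was 338 above the 50th percentile and 622 to 1034 without single arrays. Set against WT hosts, the KO T cells (0 genes) gave 2 above the 50th percentile, 3 with the replicate block and 0 to 1 without single arrays. Genes without overlap (331) numbered 160 above the 50th percentile, 1055 without WT-host arrays 1 and 4, and 396 to 973 without single arrays, where fewer arrays must be apart. Concordant genes (796) numbered 467 above the 50th percentile and 680 to 1255 without single arrays. Differences near 0 changed sign. Lag3 was -0.070 after quantile normalization, -0.054 after cyclic loess, -0.063 without WT-host arrays 1 and 4 and -0.044 to 0.045 without single arrays. Thy1 was 0.014 after median centring and -0.157 to 0.042 without single arrays. Pdcd1 was 0.058 after median centring, 0.023 with array weights, 0.030 with the replicate block, 0.025 with the covariate, 0.119 without WT-host arrays 1 and 4 and -0.108 to 0.108 without single arrays. Xist was -0.006 with the covariate. The cause was not tested. Of 851 list medians 819 moved by less than the spread between replicates, but the medians of 20 of the 37 lists changed sign under at least 1 alternative. The other 17, which kept it, include the interferon, macrophage, ITAM receptor, chemokine, mitosis, immediate early and NK lists. With the covariate the median was -0.019 for the TCR complex, -0.001 for effector and exhaustion transcription factors, -0.153 for naive and memory genes, 0.034 for stroma, 0.05 for tumor epithelium, 0.031 for erythroid genes and -0.027 for heat shock chaperones. Without WT-host arrays 1 and 4 the difference fell in size by over 1.5 times for some genes printed above, to 0.39 for C1galt1, 0.29 for Jun, 0.27 for Vav1, 0.595 for Tyrobp, 0.32 for H2-Aa, 0.17 for Lamp1, 0.11 for Lgals8, -0.14 for Epcam, -0.15 for Krt19 and -0.087 for Elane. Same-numbered arrays correlated between -0.0964 and 0.113 in their deviations, and arrays of unlike number between -0.224 and 0.162. With so few arrays these values cannot tell whether the numbers pair the arrays. Between hosts the replicate block gave 1 gene past the threshold and 2166 at an unadjusted p under 0.05.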

Other observations

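Some genes outside the lists were among those with the widest gap between hosts. Slc5a3, a transporter of myo-inositol, had 7.74, 6.94, 7.73 and 7.21 in WT hosts and 8.07 to 9.10 in KO hosts, a difference of 1.01 (SE 0.21) that was 0.39 when averaged over its rows. Ltv1, a ribosome assembly factor, differed by 0.59 without overlap. Bpgm, an enzyme that makes 2,3-bisphosphoglycerate, was the single gene of 22 on the glycolysis and hypoxia list with an unadjusted p under 0.05, at 0.47 against a list median of 0.08. That share of the list, 4.55%, was near the 4.41% higher over all genes. Respiratory chain subunits had a median of 0.07 over 23 genes, heat shock chaperones 0.08 over 11, cholesterol and fatty acid synthesis genes 0.07 over 18, Bcl2 family and death receptor genes -0.02 over 15, and chemokine and egress receptors -0.01 (13 genes). The medians were 0.11 for 20 effector and exhaustion transcription factors, 0.08 for 15 costimulatory receptors, 0.09 for 13 inhibitory receptors and 16 integrated stress response genes, 0.08 for 12 genes of the Myc network, -0.04 for 9 galectin genes and -0.21 for 4 erythroid genes. Several of these small medians change sign with the processing. Without WT-host arrays 1 and 4 they were -0.002 for heat shock chaperones, -0.03 for cholesterol and fatty acid synthesis and 0.012 for galectin genes. After quantile normalization respiratory chain subunits were at -0.012 and heat shock chaperones at -0.012, and with the value range as a covariate erythroid genes were at 0.031. Of 90291 rows that name no gene or several, 0 passed the limma adjusted threshold, 6.42% had an unadjusted p under 0.05, and in 0.859% the arrays of the hosts did not overlap, 294 higher and 482 lower.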
